A study of Homo sapiens with 6 samples.

Results

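CDK2 and PARP1 were set against each other in chromatin immunoprecipitation sequencing (ChIP-seq) libraries made from T47D-MTVL cells 5 min after progestin. T47D-MTVL was derived from the human breast cancer line T47D and carries a reporter gene with the promoter of mouse mammary tumour virus. The compared items were the 263610 windows of 10 kb on chromosomes 1 to 22 that held a mean of at least 10 reads over the 6 libraries of the series, out of 303641 windows in all. The windows were also summed to 2679 1 Mb blocks, each averaging at least 5000 reads over the libraries. The CDK2 5 min and PARP1 5 min libraries both came from cells that had been starved of steroid and serum and then given 10 nM R5020, a synthetic progestin. Libraries of the same 2 antibodies at 30 min of R5020 and at 0 min, where no hormone was given, are described beside them. Each antibody and time had 1 library, so no value has a replicate error and no difference was tested between conditions. No input library was analysed here.

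CDK2 is the cyclin-dependent kinase that drives entry into DNA replication when bound to cyclin E or cyclin A. PARP1 binds DNA and nucleosomes and attaches chains of ADP-ribose to itself and to chromatin proteins, which loosens chromatin. The study asked how CDK2 activates PARP1 in the first minutes of the hormone response. Human chromosomes alternate between gene-rich, early-replicating stretches, frequent near chromosome ends, and gene-poor, late-replicating stretches, frequent in the chromosome interiors.

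The CDK2 library held 57793168 reads and the PARP1 library 58495554 reads, with medians of 191 and 198 reads per window. The ratio given below is the share of CDK2 reads over the share of PARP1 reads in a region. It also holds the different yields of the 2 antibodies and the choice of total reads as the scale, so it describes where reads lay and not how much protein was bound. The CDK2 library was the less even of the pair. Its dispersion, the robust variance between neighbouring windows over that expected for independent reads, was 51.8, against 11.5 in PARP1 at 5 min and 6.12 to 24.1 in the libraries of the other times. Intervals called widened take this dispersion into account. They cover unevenness between neighbouring windows of a library. They cover neither unevenness over longer stretches nor the spread between experiments.

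At 5 min, the share of CDK2 reads over that of PARP1 was lowest on chromosomes 22, 19, 16, 17 and 20, all small and dense in genes, and highest on chromosomes 4 and 13, which are poor in genes. Chromosome 22 held 0.713% of CDK2 reads and 0.846% of PARP1 reads, a ratio of 0.844 (widened 95% interval 0.824 to 0.864). Chromosome 19, the chromosome with most genes per length, held 1.15% of CDK2 reads and 1.32% of PARP1 reads, a ratio of 0.871 (0.855 to 0.888). Chromosomes 16, 17 and 20 followed with ratios of 0.884, 0.894 and 0.899. These 5 chromosomes stood apart from all other autosomes, of which the lowest, chromosome 15, had 0.957.

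At the other end, chromosome 4 held 5.26% of CDK2 reads and 4.86% of PARP1 reads, a ratio of 1.08 (1.07 to 1.09). Chromosome 13, which has the fewest genes per length, held 3.17% of CDK2 reads and 2.95% of PARP1 reads, a ratio of 1.07 (1.06 to 1.09). Chromosomes 5 and 3 came next with 1.04 and 1.03. The widened interval lay below 1 on 9 autosomes and above 1 on 9, and it held 1 on chromosomes 1, 12, 18 and 21. The side of 1 depends on the scale, and chromosome 22 moved to 1.13 when the libraries were scaled on the tenth of windows with the fewest reads. The order of chromosomes does not depend on the scale: the ratio of chromosome 22 was 0.779 times that of chromosome 4.

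Before hormone the same antibodies did not part in this way. Their ratio at 0 min lay between 0.993 and 1.02 over the 22 autosomes, and the ratio of chromosome 22 was 1.00 times that of chromosome 4. At 30 min the order was turned round, with 1.15 on chromosome 22, 1.13 on chromosome 19 and 0.967 on chromosome 4, and chromosome 22 had 1.19 times the ratio of chromosome 4. The 5 and 30 min ratios lay on opposite sides of 1 on 17 of 22 autosomes, and on 14 of these both widened intervals left out 1. Chromosomes 1, 2, 11, 18 and 21 kept the same side with scaling by total reads. Chromosome 1 did so only with its first 1 Mb block, which held 74620 CDK2 and 12641 PARP1 reads at 5 min. Without it chromosome 1 had ratios of 0.998, 0.988 (0.981 to 0.996) and 1.00 (0.997 to 1.01) at 0, 5 and 30 min, so that the 5 min interval lay below 1.

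**Figure D1:**
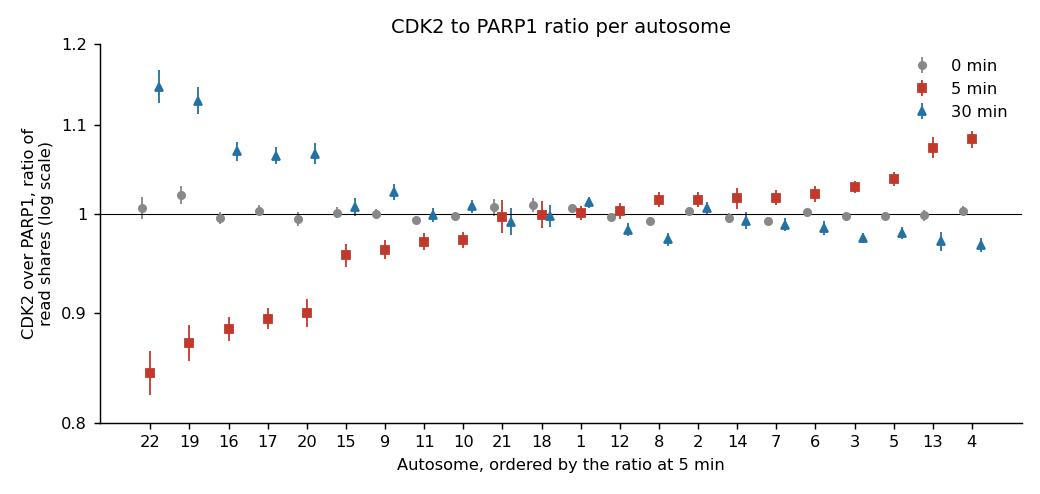
Ratio of the CDK2 to the PARP1 share of reads on each autosome at 0, 5 and 30 min, on a log scale. Points are single libraries against single libraries and bars are 95% intervals widened by the dispersion of the libraries. The 5 min ratio is lowest on chromosome 22 (0.844), where the 30 min ratio is highest (1.15), and the 0 min ratios stay between 0.993 and 1.02. All points of a time move together under another scale.

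Gene density followed the same order. The number of protein-coding genes, taken per chromosome from a RefSeq table, lay between 2.93 per Mb on chromosome 13 and 24.5 per Mb on chromosome 19. Over the 22 autosomes the 5 min ratio fell with gene density, with a Pearson r of -0.69 and a Spearman rho of -0.70. Without chromosomes 19 and 17, the 2 densest, r was -0.73 and rho -0.62. The 30 min ratio went the opposite way, with r of 0.73 and rho of 0.73, and r of 0.64 and rho of 0.66 without those 2. At 0 min r was 0.53 but -0.24 without chromosomes 19 and 17, and rho was -0.05 but -0.30 without them. The chromosomes share the same 2 libraries per time and differ in base composition as well, so these values are a description and carry no p-value. Chromosomes with like gene density were not alike in every case. Chromosome 22, with 8.79 genes per Mb, had a ratio of 0.844, while chromosome 1, with 8.27 genes per Mb, had 0.988 without its first block and chromosome 11, with 9.64 genes per Mb, had 0.971. Among the gene-poor chromosomes, chromosome 18, with 3.46 genes per Mb, had a ratio of 1.00 and chromosome 21, with 4.97, had 0.997, against 1.08 on chromosome 4, with 4.03.

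**Figure D2:**
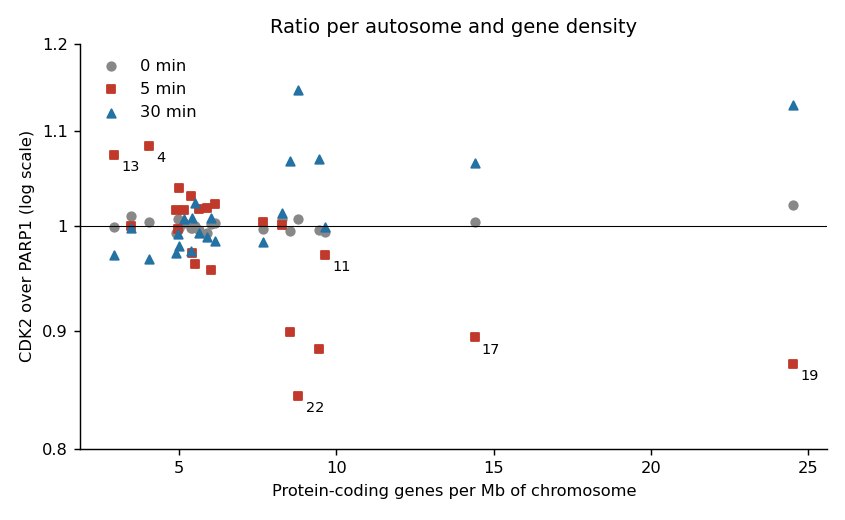
Ratio of CDK2 to PARP1 on each of the 22 autosomes (log scale) against the number of protein-coding genes per Mb. Symbols give the 0, 5 and 30 min libraries, and the numbers beside the 5 min symbols name the chromosome. The 5 min ratios fall from the gene-poor chromosomes 13 and 4 to the gene-rich chromosomes 17 and 19, and the 30 min ratios climb.

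The shift was regional and was seen within chromosomes too. Of the 2679 blocks, 670 (25.0%) had a ratio of at most 0.9 at 5 min and 653 (24.4%) a ratio of at least 1.1. At 0 min these counts were 1 (0.0373%) and 5 (0.187%), and at 30 min 238 (8.88%) and 371 (13.8%). The widened interval lay below 1 in 614 blocks (22.9%) and above 1 in 582 (21.7%) at 5 min, against 54 (2.02%) and 36 (1.34%) blocks at 0 min. The middle 90% of blocks ran from 0.795 to 1.254 at 5 min, from 0.956 to 1.04 at 0 min and from 0.887 to 1.17 at 30 min, and the SD of the log2 ratio was 0.207, 0.0620 and 0.134 at these times. With TMM factors 452 blocks were low and 887 high, with median-of-ratios factors 433 and 913, and with scaling on the tenth of windows with the fewest reads, which raised all log2 ratios by 0.42, 5 and 2446.

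The chromosomes that stood low as a whole were low in most of their blocks. On chromosome 22, 27 of 34 blocks were low and 0 were high, with a median of 0.840 and a highest block of 0.977. On chromosome 19, 38 of 57 were low and 0 high. On chromosome 4, 16 of 187 blocks were low and 91 high, with a median of 1.095, and on chromosome 13, 7 of 96 were low and 39 high. Chromosome 1, with a ratio of 1.00 as a whole, was a mixture, with 68 low and 45 high blocks of 225, and chromosome 18 had 18 low and 20 high of 74. Chromosome 15 was the most even of those near 1, with 20 low and 4 high blocks of 82 and an SD of the log2 ratio of 0.127.

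Summing windows narrowed the spread at both times and left more of it at 5 min than at 0 min. In windows with a mean of at least 50 reads, the robust SD of the log2 ratio was 0.82 for windows of 10 kb at 5 min and 0.21 for blocks of 1 Mb. At 0 min it was 0.32 and 0.04, and counting error alone would give 0.15 and 0.01 at 5 min. Blocks were also split into their odd- and even-numbered windows, which share no reads. The log2 ratios of the 2 sets of windows had a Pearson r of 0.73 across the 2679 blocks at 5 min, 0.59 at 30 min and 0.41 at 0 min, where the rank correlation was only 0.15. Neighbouring blocks had like ratios at 5 min, with r of 0.66 at a distance of 1 Mb, 0.38 at 5 Mb, 0.24 at 10 Mb and 0.14 at 20 Mb. At 0 min r was 0.11 at 1 Mb and 0.03 at 5 Mb. Blocks of a library are not replicates, and these correlations describe the scale of the pattern only. Depth did not order the blocks steadily: in 10 classes by PARP1 reads at 0 min, the median 5 min ratio was 0.875 in the shallowest class, 1.08 in class 4, 0.920 in class 6 and 1.06 in the deepest.

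Part of the low and high blocks lay in long stretches, and most lay outside them. Runs of at least 5 neighbouring blocks that were all at or under 0.9 numbered 34, on 18 chromosomes. They held 252 of the 670 low blocks. Together they took 7.73% of CDK2 reads and 9.45% of PARP1 reads at 5 min. At 0 min both antibodies had 8.21% and 8.20% of their reads there, and at 30 min CDK2 had 10.1% and PARP1 8.97%. The reverse runs, all at or over 1.1, numbered 38 on 17 chromosomes with 289 of the 653 high blocks. They took 11.9% of CDK2 reads and 9.82% of PARP1 reads at 5 min, against 11.2% and 11.3% at 0 min and 9.42% and 10.3% at 30 min. The 30 min ratio was above 1 in all 34 low runs and below 1 in all 38 high runs with scaling by total reads. The runs were chosen on the 5 min ratio, which took no part in the values of the other times.

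The longest low run was the end of the long arm of chromosome 9, chr9:127000001-141000000, which covers band 9q34 with the receptor gene NOTCH1 and the kinase gene ABL1. It held 323443 CDK2 and 416735 PARP1 reads at 5 min, which gave a ratio of 0.786 (widened 95% interval 0.765 to 0.807). Its ratio was 1.00 at 0 min and 1.16 at 30 min. The next was the end of the short arm of chromosome 16, chr16:1-13000000, with 222293 CDK2 and 273058 PARP1 reads, a ratio of 0.824 (0.798 to 0.851), against 0.995 at 0 min and 1.09 at 30 min. On chromosome 11 the run lay inside the chromosome, at chr11:61000001-73000000, around band 11q13 with the cyclin gene CCND1. It held 210780 CDK2 and 262386 PARP1 reads, a ratio of 0.813 (0.786 to 0.841), against 1.02 and 1.15 at the other times.

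Chromosome 17 held 2 of the longest low runs. The end of its long arm, chr17:70000001-81000000, had 253936 CDK2 and 329733 PARP1 reads and the lowest ratio of these runs, 0.779 (0.756 to 0.803). The stretch chr17:39000001-49000000, which holds BRCA1 and the HOXB genes, had 244014 and 296532 reads and a ratio of 0.833 (0.807 to 0.859). On chromosome 12 the run chr12:116000001-126000000 had 259704 and 314447 reads and a ratio of 0.836 (0.811 to 0.862). The run chr22:35000001-45000000, of the same length of 10 blocks as the last 2, had 125857 and 153109 reads and a ratio of 0.832 (0.797 to 0.869). All 7 had ratios between 0.995 and 1.02 at 0 min and between 1.08 and 1.16 at 30 min.

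The longest high run was in the interior of chromosome 13, chr13:55000001-73000000, a stretch with protocadherin genes of neurons. It held 318234 CDK2 and 257611 PARP1 reads at 5 min, which gave a ratio of 1.2503 (1.22 to 1.29), against 0.992 at 0 min and 0.924 at 30 min. The stretch chr7:77000001-91000000 held 428947 CDK2 and 359356 PARP1 reads, a ratio of 1.21 (1.18 to 1.24). The run chr1:186000001-199000000 had 442811 and 362318 reads and a ratio of 1.24 (1.21 to 1.27), and chr5:18000001-31000000, a stretch of neural cadherin genes, had 314080 and 251872 reads and a ratio of 1.26 (1.23 to 1.30). The next 3 had 11 blocks each: chr13:81000001-92000000 with 1.22 (1.18 to 1.253), chr14:39000001-50000000 with 1.19 (1.16 to 1.23) and chr7:9000001-20000000 with 1.17 (1.14 to 1.197). At 0 min these 7 runs had ratios between 0.987 and 0.995, and at 30 min between 0.901 and 0.927.

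**Figure D3:**
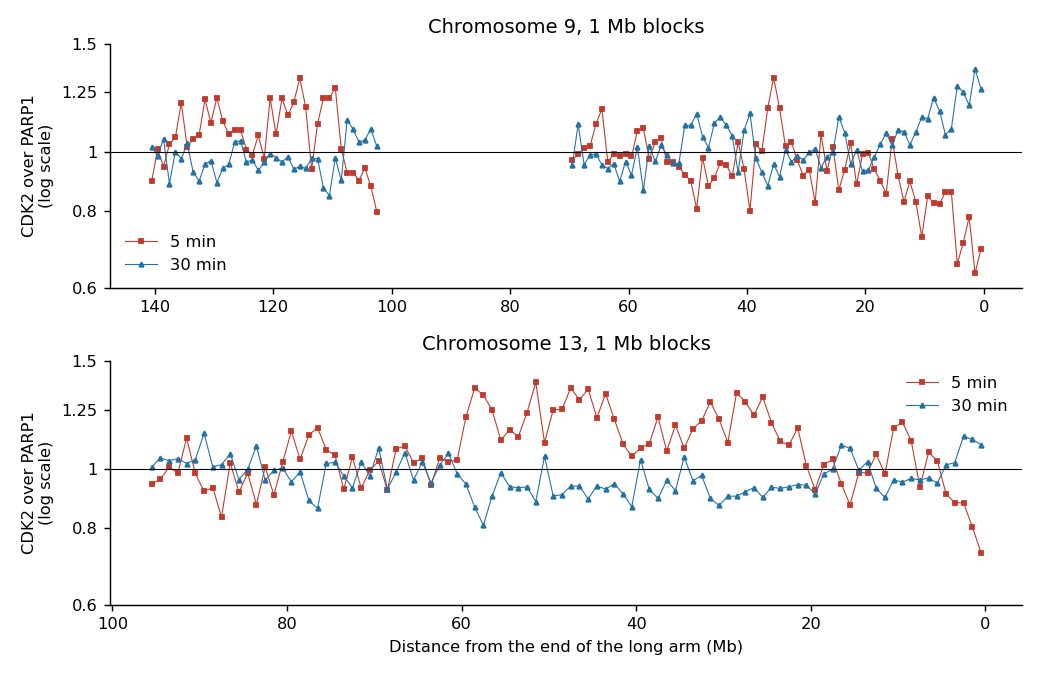
Ratio of CDK2 to PARP1 in blocks of 1 Mb along chromosomes 9 and 13 at 5 and 30 min, on a log scale, against the distance from the end of the long arm. Gaps are stretches with no compared block. The last stretch of chromosome 9 lies low at 5 min (0.786 over its run of 14 blocks) and high at 30 min (1.16), and the interior run of 18 blocks of chromosome 13 lies high at 5 min (1.2503) and low at 30 min (0.924).

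Position along the chromosome sorted the blocks as well. The median ratio at 5 min was 0.833 in the 80 blocks less than 2 Mb from a chromosome end, 0.870 in the 117 blocks at 2 to 5 Mb, 0.916 in the 193 at 5 to 10 Mb, 0.946 in the 396 at 10 to 20 Mb and 1.02 in the 1893 farther in. At 0 min the 5 medians lay between 0.997 and 1.00. At 30 min they ran the other way, with 1.14 nearest the end and 0.978 farthest in. Blocks of at most 0.9 made up 78.8% of those within 2 Mb of an end and 16.2% of those over 20 Mb away, against 25.0% of all blocks. In the 197 blocks within 5 Mb of an end, CDK2 had 6.12% and PARP1 7.04% of reads at 5 min, against 6.35% and 6.28% at 0 min and 7.50% and 6.72% at 30 min.

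The chromosome ends were also compared one by one with the interior of their own chromosome, over 20 Mb from either end. The median block within 5 Mb of the end lay below the median interior block at 36 of 39 ends at 5 min, at 23 of 39 at 0 min and at 3 of 39 at 30 min. The gap was wide at the long-arm end of chromosome 9 (0.695 against 0.991 in its interior), the short-arm end of chromosome 4 (0.788 against 1.12) and the long-arm end of chromosome 8 (0.746 against 1.03). The 3 ends that did not lie below their interior at 5 min were the short-arm ends of chromosome 18 (1.07 against 1.00), chromosome 3 (1.09 against 1.03) and chromosome 9 (1.01 against 0.991). The long-arm end of chromosome 1 had 0.988 against 0.990 and the short-arm end of chromosome 20 had 0.858 against 0.860, so their place among the 36 rests on very small gaps. Since each end is set against its own chromosome, these counts do not rest on the scaling by totals.

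**Figure D4:**
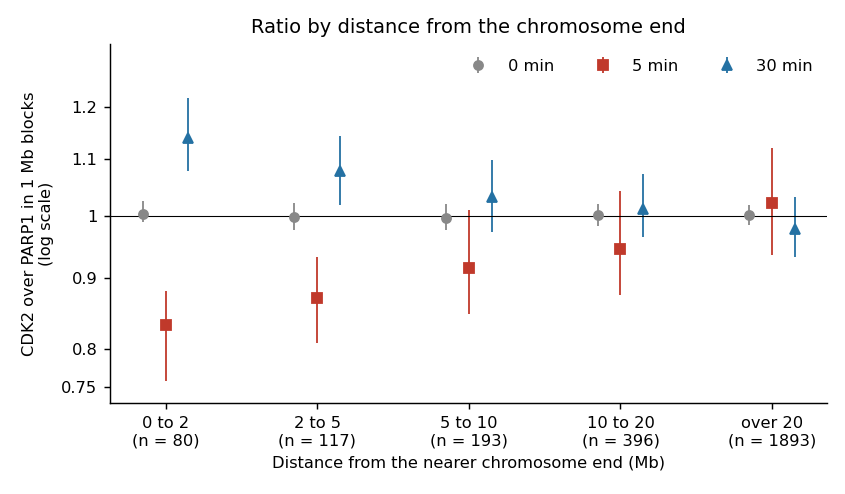
Ratio of CDK2 to PARP1 in blocks of 1 Mb (log scale) by distance from the nearer chromosome end at 0, 5 and 30 min. Points are medians over blocks and bars span the interquartile range. The 5 min median climbs from 0.833 within 2 Mb of an end to 1.02 beyond 20 Mb, the 30 min median falls from 1.14 to 0.978, and the 0 min medians stay between 0.997 and 1.00.

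Both antibodies contributed to the 5 min ratio. It equals the 0 min ratio times the CDK2 change from 0 to 5 min, divided by the PARP1 change. On chromosome 22 the CDK2 share at 5 min was 0.957 times that at 0 min, and the PARP1 share 1.14 times. On chromosome 4 the CDK2 share was 1.02 times and the PARP1 share 0.947 times that at 0 min. In the 670 low blocks the median change was 0.943 for CDK2 and 1.13 for PARP1. CDK2 lay below its own 0 min share in 599 of them and PARP1 above its own in 649. In the 653 high blocks the median changes were 1.06 and 0.885, and these counts were 60 and 6. In the 1356 blocks between the limits the counts were 729 and 677. Of the variance of the 5 min log2 ratio over blocks, the PARP1 change held 62.4%, the CDK2 change 33.6% and the 0 min ratio 3.98%. The part of the 0 min ratio rested on the 2 blocks of highest ratio. The Pearson r between the 5 and 0 min log2 ratios was 0.13 with them and -0.11 without them. The blocks were chosen on a ratio that contains both 5 min libraries, so these changes are a description.

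The 5 and 30 min ratios use 4 different libraries, and across blocks they ran against each other. The Pearson r between their log2 values was -0.55 over 2679 blocks and -0.73 without the 2 blocks of highest ratio, with a rank correlation of -0.73 over all blocks. Between 5 and 0 min the rank correlation was -0.11. In the 670 blocks that were low at 5 min the median ratio was 1.09 at 30 min, and 601 of them (89.7%) lay above 1. In the 653 high blocks it was 0.928, and 45 (6.89%) lay above 1. In the 1356 blocks between the limits it was 0.988, and 568 (41.9%) lay above 1. The side of 1 rests on scaling by total reads. The blocks share base composition and the number of copies in this line between times, neither of which was analysed here.

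**Figure D5:**
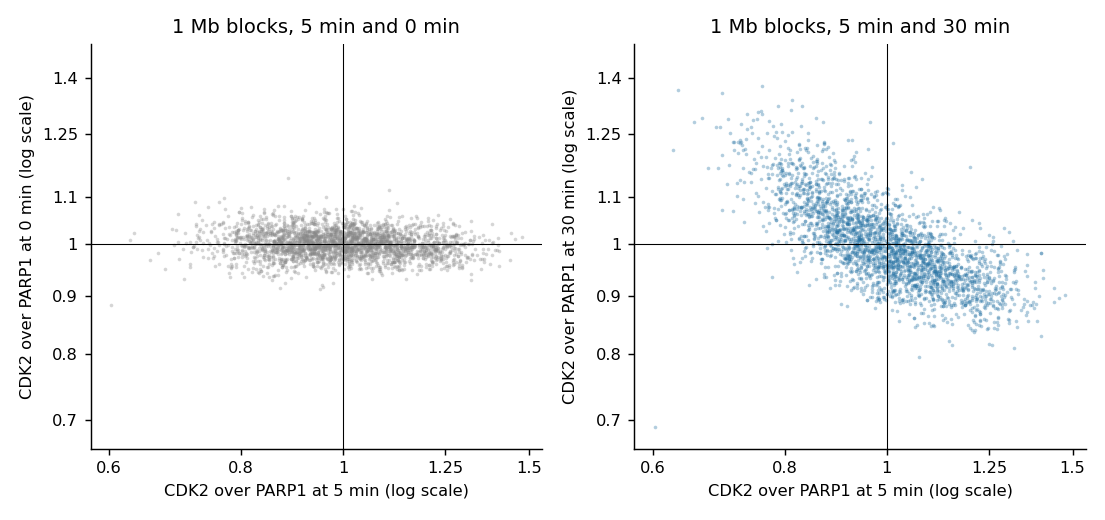
Ratio of CDK2 to PARP1 in blocks of 1 Mb at 0 min (left) and 30 min (right) against that at 5 min, all on log scales, with 1 point per block. The 2 blocks of highest ratio are outside the axes. The 0 min ratios form a flat band (rank correlation -0.11), and the 30 min ratios fall as the 5 min ratio grows (rank correlation -0.73).

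The 8 lowest blocks show the pattern in single places. The block chr4:8000001-9000000, in band 4p16, had 8550 CDK2 and 13797 PARP1 reads, a ratio of 0.627 (widened 95% interval 0.533 to 0.738), against 1.01 at 0 min and 1.21 at 30 min. The block chr9:139000001-140000000 had 16686 CDK2 and 26678 PARP1 reads and a ratio of 0.633 (0.563 to 0.711), with 1.37 at 30 min, and chr9:136000001-137000000 had 0.656 (0.588 to 0.732). The other 4 of this kind were near chromosome ends: chr1:3000001-4000000 with 0.668, chr20:61000001-62000000 with 0.677, chr19:3000001-4000000 with 0.688 and chr18:77000001-78000000 with 0.691. All 7 had 30 min ratios above 1, between 1.17 and 1.37.

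The lowest block of all was of another kind. The block chr21:9000001-10000000, on its short arm, had 6861 CDK2 and 11523 PARP1 reads, a ratio of 0.603 (0.503 to 0.722), with 0.883 at 0 min and 0.690 at 30 min. Many of its reads lay in 1 window, chr21:9820001-9830000, which carries a copy of ribosomal RNA sequence in hg19. That window held 1640 CDK2 and 5294 PARP1 reads at 5 min, which gave a ratio of 0.314. Its ratio was 0.748 at 0 min and 0.482 at 30 min, so it was below 1 at every time. The block had a ratio of 0.838 once its 2 fullest windows were left out.

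Of the 8 highest blocks, the 6 described here lay between 13.6 and 78.7 Mb from the nearer chromosome end. The block chr4:61000001-62000000 had 19758 CDK2 and 13545 PARP1 reads, a ratio of 1.48 (1.32 to 1.66), against 1.01 at 0 min and 0.901 at 30 min. The block chr4:112000001-113000000 had 1.46 (1.29 to 1.64), chr7:118000001-119000000 had 1.44 (1.28 to 1.63) and chr7:145000001-146000000, in band 7q35 with the start of the very long neuronal gene CNTNAP2, had 1.44 (1.28 to 1.62). The last were chr5:26000001-27000000 with 1.41 and chr2:185000001-186000000 with 1.41. In these 6 the CDK2 share was 1.13 to 1.245 times and the PARP1 share 0.780 to 0.856 times its own 0 min value.

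The 2 blocks of highest ratio were set by a few windows. The first block of chromosome 1, chr1:1-1000000, held 74620 CDK2 and 12641 PARP1 reads, a ratio of 5.97. It also had 5.17 at 0 min and 5.90 at 30 min. The window chr1:560001-570000 alone held 69604 CDK2 and 8954 PARP1 reads. Without its 2 highest windows the block had a ratio of 0.600, on the side of the other blocks of that end. The block chr5:134000001-135000000 had 53354 CDK2 and 30091 PARP1 reads, a ratio of 1.79, and 0.901 without its 2 highest windows. In hg19 these windows hold nuclear copies of mitochondrial DNA, to which reads of mitochondrial origin can align. The part of such reads was not tested.

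Single windows were far noisier than blocks. At 5 min, 20131 windows (7.64%) had a ratio of at least 2 and 43463 (16.5%) a ratio of at most 0.5, each with a 95% exact binomial interval that left out 1. At 0 min 0.390% and 0.637% of windows met these limits, and at 30 min 3.58% and 9.79%. With scaling on the tenth of windows with the fewest reads, 52254 windows were higher and 25715 lower at 5 min. The interval covers counting error only. With the counts divided by the dispersion around the local ratio, 28.4 at 5 min, 3023 windows (1.15%) were higher and 4459 (1.69%) lower. Of the 43463 windows lower by counting error alone, 35.1% had a neighbour that was also lower, against 29.6% of all windows. Of the 20131 higher ones 21.4% had a neighbour that was higher, against 14.3% of all windows.

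Part of the lower windows held no CDK2 read at all. CDK2 at 5 min had 0 reads in 2735 windows (1.04%), against 12 windows of PARP1 at 5 min. In these 2735 windows PARP1 had a median of 120 reads at 5 min, and CDK2 itself had medians of 91 reads at 0 min and 76 at 30 min. Of these, 189 (6.91%) had a neighbouring window at 0, against 1.97% of all windows. The share of windows at 0 was 14.9% where the 6 libraries had a mean of 10 to 50 reads, 0.897% at 100 to 200 reads and 0.0236% at 200 to 400 reads. The calls were likewise most frequent at low depth. Of the 4139 windows at a mean of 10 to 50 reads 20.1% were higher and 42.8% lower, and of the 3885 windows at 400 reads or more 3.55% and 3.35%. Shallow windows that reached the minimum mean only through CDK2 reads at 5 min were not left out of these shares. They numbered 295, of which 220 were called higher, so the share of higher calls at low depth is raised by the choice of windows. With the counts divided by the dispersion, 0% were higher and 0% lower in the shallowest windows, and 3.32% and 2.39% in the deepest. At a mean of 10 to 50 reads the divided counts are so small that an interval can hardly leave out 1. The 0% therefore tells nothing about differences at low depth.

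The windows farthest to the low side were all of this kind. The window chr15:31350001-31360000 held 0 CDK2 and 396 PARP1 reads at 5 min, at least 130-fold lower for CDK2 with 3 reads as the floor per library. Its exact 95% interval ended at a ratio of 0.00947, and at 0.306 with the counts divided by the dispersion. CDK2 had 172 and 130 reads there at 0 and 30 min. The window chr15:91130001-91140000 held 0 and 381 reads, at least 125-fold lower, with 162 and 293 CDK2 reads at 0 and 30 min. The window chr8:54490001-54500000 held 0 and 375 reads, at least 123-fold lower. The other 3 of the 6 named windows, chr11:76050001-76060000, chr9:85820001-85830000 and chr16:17730001-17740000, also had 0 CDK2 reads, with 354 to 374 PARP1 reads, and 124 to 222 CDK2 reads at 30 min. With the counts divided by the dispersion, the intervals of the 6 ended between 0.306 and 0.348. At the other times their ratios lay between 0.776 and 1.55. The exact interval was below 1 in 2 of them at 0 min, chr8:54490001-54500000 with 0.810 and chr16:17730001-17740000 with 0.821, and in 1 at 30 min, chr9:85820001-85830000 with 0.776. It was above 1 in 2 of them at 30 min, chr15:91130001-91140000 with 1.55 and chr11:76050001-76060000 with 1.34.

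On the high side the foremost windows were shallow. The window chr5:70440001-70450000 held 76 CDK2 reads and 0 PARP1 reads at 5 min, at least 25.6-fold higher for CDK2 with the same floor and with an exact interval from 20.4 upwards, and 0 to 3 reads in each library of the other times. The window chr10:81480001-81490000 held 109 CDK2 reads and 1 PARP1 read, a ratio of 110 with a 95% interval of 19.4 to 4397. The window chr12:63990001-64000000 held 106 and 2 reads, a ratio of 53.6 (14.5 to 449), and chr4:9410001-9420000 held 76 and 1 reads, a ratio of 76.9 (13.4 to 3078). The remaining 2, chr1:41290001-41300000 and chr1:206140001-206150000, held 50 and 46 CDK2 reads and 0 PARP1 reads. In 4 of the 6, those on chromosomes 1, 5 and 10, the other 5 libraries summed to 7 to 30 reads, so that they reached the mean of 10 only through the CDK2 5 min reads and could enter the comparison only with a high CDK2 count at 5 min. This held for 295 of all windows, of which 220 were among the 20131 called higher. With the counts divided by the dispersion, the interval of each of the 6 held 1.

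When the test on the divided counts was also adjusted over all windows, 7 remained, of which 6 were higher for CDK2 (0.00228%) and 1 lower (0.000379%). A window of usual depth, with medians of 191 CDK2 and 198 PARP1 reads at 5 min, keeps so few counts after the division that it could hardly pass. The small number left therefore tells nothing about differences in windows of usual depth. The window chr1:560001-570000 had ratios of 6.31, 7.87 and 7.69 at 0, 5 and 30 min. The adjoining window chr1:570001-580000 had 3096 CDK2 and 450 PARP1 reads at 5 min and ratios of 6.01, 6.96 and 5.84. On chromosome 5 the window chr5:134260001-134270000 had 27840 CDK2 and 4461 PARP1 reads at 5 min and ratios of 5.47, 6.32 and 6.35, the adjoining chr5:134250001-134260000 had 4.48, 4.91 and 4.38, and chr5:79940001-79950000 had 3.45, 6.03 and 3.71. These 5 windows were higher for CDK2 before hormone as well as after it. The 1 lower window was that of chromosome 21 given above.

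The seventh window was left by the adjusted call at 5 min but not at 0 or 30 min. The window chr8:43090001-43100000, near the centromere, held 3341 CDK2 and 783 PARP1 reads at 5 min, which gave a ratio of 4.32. At 0 min it held 1140 CDK2 and 1093 PARP1 reads, a ratio of 1.29, and at 30 min 421 and 995 reads, a ratio of 0.670. The CDK2 count thus moved in both directions within 30 min, and PARP1 stayed between 783 and 1093 reads. Reads that match several places are frequent near centromeres, and the sources used here do not say how they were counted.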

How the data were processed

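The authors deposited whole-number read counts per consecutive 10 kb window, 1 column per library, without normalization, for chromosomes 1 to 22 and X. Alignment was to hg19 by Bowtie 1.0.0, per the submitters' processing notes. Whether duplicates, multiple matches or low-quality reads were removed is not stated there. Each library was scaled by its total, 40097131 to 63448449 reads. Ratios have exact binomial 95% intervals, or widened ones on the log scale with the counts' variance multiplied by the library's dispersion. The dispersion of a pair was taken around the local ratio over 20 windows on each side. Intervals and floors cover counting error, and reads without molecular identifiers are not independent.

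Named regions follow a fixed rule: the 8 highest and 8 lowest blocks, the 6 longest runs of each kind with any tied for the last place, and the 6 windows on each side with the interval bound farthest from 1, at most 1 per 100 kb. The rule also asked for every window called after division by the dispersion. That gave too many to name, so those left after a Benjamini-Hochberg adjustment at 0.05, a step added after seeing the data, were named. Regions, classes and tests were chosen with earlier results of these data known. Gene numbers per chromosome come from a RefSeq table of GRCh38.p14. Since its build differs, no window was assigned to a gene by coordinates, the gene lists planned were not evaluated, and no sequence is printed. Bands and genes named with a region are textbook background. Scaling alternatives used factors from edgeR 4.0.16 and DESeq2 1.42.0 in R 4.3.3. Python 3.11.15 served for the rest, with numpy 2.4.6 and scipy 1.17.1 for intervals, pandas 2.3.3 for tables and matplotlib 3.10.9 for plots.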

Additional observations from a re-analysis of the deposited data

Results flagged for a closer look

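On 14 autosomes the CDK2 to PARP1 ratios at 5 and 30 min fell on opposite sides of 1, and both widened intervals left out 1. The 5 min ratio was below 1 on chromosomes 22 (0.844), 19 (0.871), 16 (0.884), 17 (0.894), 20 (0.899), 9 (0.963) and 10 (0.973). It was above 1 on chromosomes 4 (1.08), 13 (1.07), 5 (1.04), 3 (1.03), 6 (1.02), 7 (1.02) and 8 (1.02). With 1 library per antibody and time, the difference between the times was not tested, and the side of 1 rests on scaling by total reads.

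Chromosome X was outside the comparison. There chrX:125600001-125610000 held 1219 CDK2 reads at 5 min, against 226 for PARP1, a ratio of 5.46, and was the only X window left by the adjusted call at 5 min. It was higher for CDK2 at the other times too, with 616 CDK2 and 203 PARP1 reads at 0 min (ratio 3.75) and 550 and 129 reads at 30 min (6.75).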

How the results depend on the processing

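No paired analysis was possible because each antibody and time had 1 library, so no library could be left out either. Another scale moves all ratios by 1 factor and leaves the order of chromosomes, blocks and ends, the spread of blocks and the 5 to 30 min correlation as they were. With TMM factors the ratio was 0.876 on chromosome 22, 1.12 on chromosome 4 and 0.864 in the median block within 2 Mb of an end, and 7 autosomes lay below 1, against 11 with scaling by totals. With median-of-ratios factors these values were 0.880, 1.13, 0.868 and 6, with 433 low blocks. With the median block set at 1 the first 3 were 0.850, 1.09 and 0.839. Scaling on the tenth of windows with the fewest reads turned chromosome 22 to 1.13 and the blocks near ends to 1.11, put chromosome 4 at 1.448 and 0 autosomes below 1, and gave 52254 higher and 25715 lower windows and 2446 high and 5 low blocks. By construction, a factor over all ratios did this.

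Leaving out the 1% of windows with most reads gave an SD of the log2 block ratios of 0.200 against 0.207, a 5 to 30 min correlation of -0.74 against -0.55, 0.834 near ends and 1.09 on chromosome 4, and turned the block chr5:134000001-135000000 to 0.901. Leaving out only the 2 blocks of highest ratio gave 0.200 and -0.73, and without its first block chromosome 1 turned to 0.988 at 5 min. A minimum mean of 50 reads gave 0.208, -0.54 and 0.834 near ends, and no minimum gave -0.551 and 0.832. Thinning both libraries to 40097131 reads gave 0.829 near ends. Without windows at 0 reads the SD was 0.206, the correlation -0.53, the median near ends 0.837, chromosome 22 had 0.864 and chromosome 4 1.096. The ends below their interior numbered 35 or 36 of 39 under all these settings.

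Counts of windows rested on the limits. A fold limit of 1.5 gave 51816 higher and 73432 lower windows, a limit of 3 gave 3489 and 21360, division by the dispersion 3023 and 4459, and adjustment on top of it 6 and 1. Limits of 0.8 and its inverse gave 144 high and 145 low blocks, and blocks of 2 Mb, of which there are fewer, 304 and 324 with an SD of 0.192. Taking the median of window ratios gave an SD of 0.220. That setting gave 479 high and 979 low blocks, against 653 and 670 with summed windows. High blocks thus made up 32.9% of the blocks beyond either limit, against 49.4%, which was not followed up. Of 142 recomputed ratios of named blocks, 87 stayed within their counting interval, 54 left it on the same side of 1 and 1 turned. The shallow depth of a 10 kb window in an uneven library limits what single windows can show.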
